A study of Mus musculus with 2 samples.

Results

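The 8 genes described here encode proteins of the complement system, or receptors for its fragments, that white blood cells of tumours can make: C1qa, C1qb, C1qc, C3, Cfb, Cfp, C3ar1 and C5ar1. They were chosen by symbol from the 31053 genes of the matrix, and each symbol matched 1 gene. The cells were living CD45+ (white blood) cells taken by sorting from B16F10 melanomas, a mouse tumour line grown after injection, at 2 weeks, and their RNA was read by droplet 3′ sequencing. The 2 samples were wild-type mice (LysM-cre x Rel+/+) and mice with a myeloid deletion of Rel (LysM-cre x RelloxP/loxP), each as 1 library from 5 pooled tumours. Both genotypes therefore carried LysM-cre, a recombinase driven from the lysozyme M locus in macrophages, monocytes and neutrophils, and Rel encodes the NF-kB subunit c-Rel. A number at the end of each barcode, 1 or 2, gave the library, and nothing in the sources used here tied it to a genotype. The libraries are therefore called library 1 and library 2, no effect of the deletion was read, and with 1 library per genotype no test was possible. Intervals in parentheses are 95% intervals that cover counting error only.

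Complement is a cascade of blood and tissue proteins that tags cells and debris for removal. C1q, built from the products of C1qa, C1qb and C1qc, starts the classical pathway by binding antibody or dying cells, and macrophages are a main source of it. C3 is the central component at which all pathways meet, factor B (Cfb) forms the alternative pathway's enzyme with it, and properdin (Cfp) stabilises that enzyme. The fragments C3a and C5a, called anaphylatoxins, act on white blood cells through the receptors encoded by C3ar1 and C5ar1.

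Classes of barcodes were set from marker genes, none of which is a complement gene. A macrophage-gate barcode held at least 3 UMIs (counted RNA molecules) of Apoe, Ms4a7 and Pf4 together, and the monocyte, neutrophil, dendritic, T and NK, B and melanoma gates used their own markers. Of 7688 barcodes in library 1 and 10564 in library 2, 5198 and 7999 were used. The libraries shared 3609 barcode sequences, and 1991 and 1529 barcodes with a copy of over 10 times their UMIs in the other library were left out. The macrophage gate held 911 and 1118 barcodes with medians of 2193 and 1540 UMIs, the monocyte gate 273 and 307 with medians of 1827 and 1017, and the neutrophil gate 138 and 79 with medians of 638.5 and 656. The T and NK gate held 894 and 403 barcodes (medians 1029 and 1115 UMIs), and the melanoma gate 2003 and 4913 (medians 18160 and 11998). Levels are in CPM, the UMIs of a gene per 1000000 UMIs of its class and library. The melanoma gate held 6.48 and 3.89 CPM of Ptprc, the gene for CD45, against 418 and 248 in the macrophage gate, so those barcodes went against the sort. The macrophage genes that set no gate and were checked, Adgre1, Csf1r and Mertk, were all at higher CPM in the macrophage than in the melanoma and T and NK gates in both libraries. Against the monocyte gate Adgre1 and Mertk were higher in macrophages in both libraries, while Csf1r was at 301 against 234 CPM in library 1 and 243 against 285 in library 2. Melanoma RNA itself contained Apoe. In library 2, 71 deep barcodes that passed the macrophage gate held as many or more melanoma than macrophage marker UMIs and made up 25.1% of the gate's UMIs, against 10 barcodes and 6.32% in library 1; these were left out, and the values with them are given where they change a statement. Rel itself had 197 and 43.4 CPM in the macrophage gates of libraries 1 and 2, 299.8 and 85.8 in the monocyte gate, and 135 and 152 in the T and NK gate. These values were not used to assign a genotype, and the place of the counted 3′ end relative to the deleted exons was not analysed here.

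In the mouse genome (GRCm38) the C1q genes lie side by side on the minus strand of chromosome 4, with C1qb at chr4:136880129-136886187, C1qc at chr4:136889804-136893065 and C1qa at chr4:136895917-136898803. They span 18675 bases that hold no other annotated gene. The other members lie apart from them: C3 at chr17:57203970-57228136, Cfb at chr17:34856374-34862518, C3ar1 at chr6:122847138-122856161, C5ar1 at chr7:16246743-16259540 and Cfp at chrX:20925454-20931555. Cfb overlaps the gene model Gm20547 on its own strand, so its counts are uncertain, and the microRNA gene Mir6978 lies within C3. C1qb and C1qc were higher with more macrophage marker RNA, and C3 was lowest in barcodes with the most of it. C3ar1, C5ar1 and Cfp were also higher with the most macrophage marker RNA than with none. The bases just upstream of 3 starts are shown, those where a motif named below was found. They are from RefSeq (GRCm38.p6, minus strand, 5′ to 3′), whose promoter table matched 6 of the 8 genes, and bases inside the annotated gene are not shown. Capitals mark matches, on either strand, to the PU.1 core GAGGAA and the C/EBP motif TTGCNNAA, which do not overlap one another here.
C1qb, chr4:136886201-136886450: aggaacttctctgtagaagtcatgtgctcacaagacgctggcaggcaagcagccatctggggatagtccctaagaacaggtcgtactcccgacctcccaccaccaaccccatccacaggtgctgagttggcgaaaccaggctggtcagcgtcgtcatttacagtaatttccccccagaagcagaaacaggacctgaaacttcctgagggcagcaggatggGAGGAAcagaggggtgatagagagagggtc
C1qc, chr4:136893066-136893164: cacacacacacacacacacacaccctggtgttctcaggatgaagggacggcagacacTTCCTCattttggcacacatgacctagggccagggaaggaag
C3, chr17:57228137-57228386: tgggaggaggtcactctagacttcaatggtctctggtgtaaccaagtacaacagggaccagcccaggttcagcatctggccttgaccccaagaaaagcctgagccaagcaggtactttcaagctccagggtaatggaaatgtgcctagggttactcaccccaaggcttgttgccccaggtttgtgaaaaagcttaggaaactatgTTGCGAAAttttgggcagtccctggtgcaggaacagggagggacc
PU.1 is a transcription factor of all myeloid cells, and C/EBP factors act in granulocytes, monocytes and the liver. A PU.1 core began 30 bases before the RefSeq start of C1qb and 193 before that of C1qc, in a window of 250 bases. Of 32851 promoters searched in the same window, 23.3% held that core and 9.56% the C/EBP motif. The C/EBP motif was found for C3, 45 bases before its start, and neither motif in the windows of C3ar1, C5ar1 and Cfp. These matches describe letters and not binding.

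The C1q genes had the highest CPM of the members in macrophages, with 3′ counting that takes no account of gene length, and most of their RNA was in the macrophage gate. C1qa was at 2886 CPM (2822 to 2950) in macrophage-gate barcodes of library 1 and 2266 (2206 to 2328) in library 2. C1qb was at 3224 (3157 to 3292) and 2793 (2725 to 2862). C1qc was at 1445 (1400 to 1490) and 1476 (1428 to 1527). The macrophage gate held 81.6% and 78.3% of all C1qa UMIs of the used barcodes, 79.3% and 76.0% of C1qb and 79.2% and 78.4% of C1qc. The number of cells of a type does not enter the CPM levels, since each is relative to the UMIs of its own class. It does enter the shares of all UMIs, which depend on how many barcodes each class held.

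Among the gated classes, monocytes came next for all 3 C1q genes in library 1 and for C1qb and C1qc in library 2, where the C1qc intervals of monocytes and neutrophils overlapped. C1qa was there at 515 CPM (458 to 577) in library 1 and 91.3 (62.9 to 128) in library 2. C1qb was at 943 (865 to 1025) and 318 (263 to 382), and C1qc at 339 (294 to 390) and 80.3 (53.8 to 115). In the T and NK gate, which should lack C1q, the 3 genes lay between 16.9 and 65.0 CPM in library 1 and between 14.4 and 27.1 in library 2, and in the melanoma gate between 4.96 and 14.2 over both libraries. The C1q UMIs of the T and NK and neutrophil gates sat in few barcodes: 3 of 894 T and NK barcodes held 65.0% of that gate's C1q UMIs in library 1, and 3 of 79 neutrophil barcodes held 21 of 24 in library 2. In the melanoma gate they were spread, with C1qb in 251 of 2003 barcodes (345 UMIs) and 637 of 4913 (855 UMIs). Neutrophil-gate barcodes of library 1 held 0 C1qa, 3 C1qb and 0 C1qc UMIs in 104441, which allows a level of up to 28.7 CPM where the count is 0. Barcodes that passed no gate held the 3 genes together at 827 and 1045 CPM, with 1.09% and 3.19% of all C1qa UMIs of the used barcodes. Mixed barcodes, left out because their markers pointed to more than 1 class, held 10.4% and 8.23%. Part of the C1q RNA thus lay outside the named classes, and more of that C1qa RNA was in mixed barcodes. Of the same C1qa UMIs the large melanoma gate held 3.10% and 9.41%, and the monocyte gate 3.11% and 0.489%. The order of classes by CPM is therefore not the order by share.

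**Figure D1:**
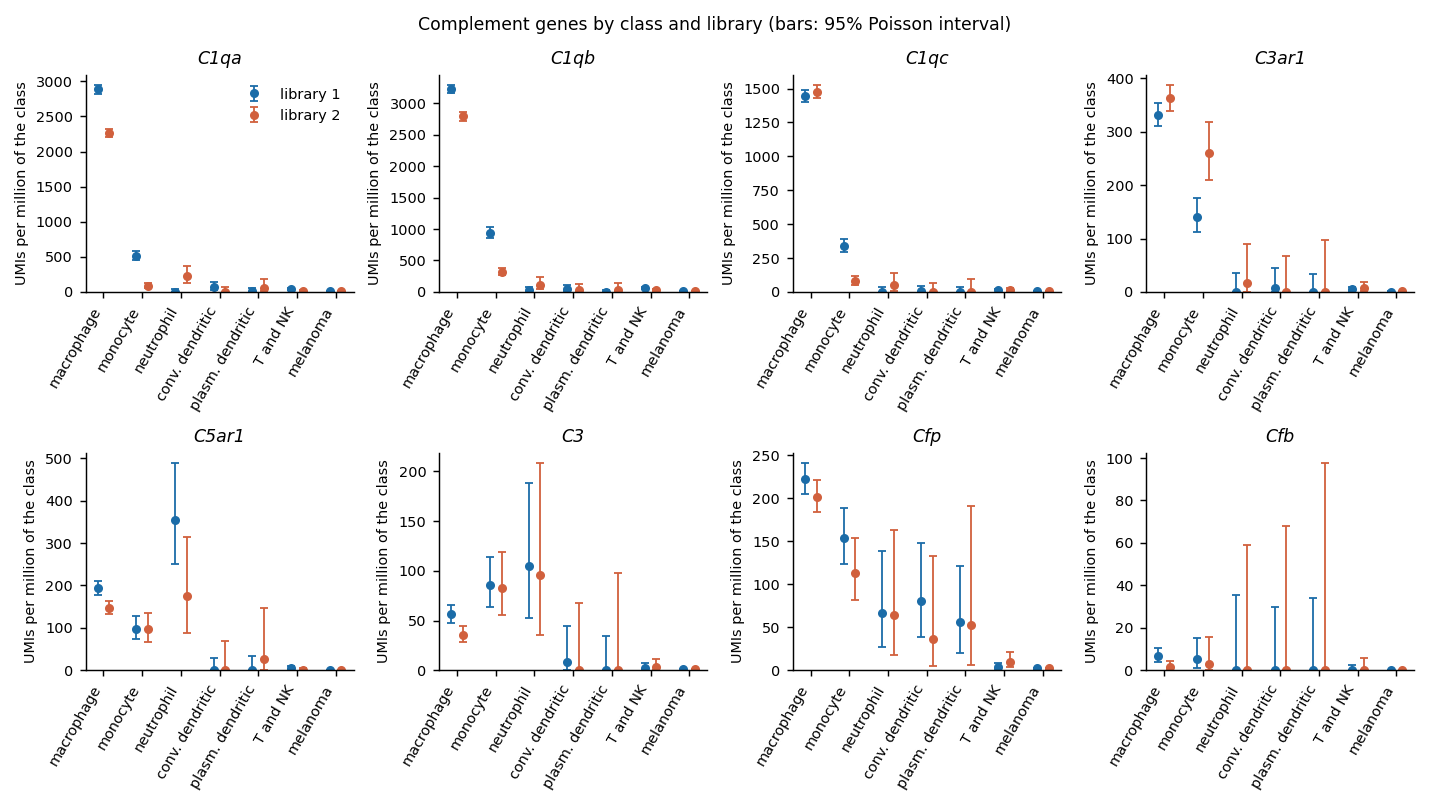
Level of each complement gene (vertical axis, CPM, from 0) in 7 classes of barcodes (horizontal axis) for library 1 (blue) and library 2 (orange), with 95% Poisson intervals. C1qa, C1qb and C1qc are highest in the macrophage gate, C5ar1 has its highest points in the neutrophil gate, and the points of C3 are higher in the monocyte and neutrophil than in the macrophage gate.

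Between the macrophage and the monocyte gate, the C1q genes together were 4.20 times (3.95 to 4.48) higher in macrophages in library 1 and 13.3 times (11.5 to 15.6) in library 2. A gene was called when its ratio was at least 2, or at most 0.5, in both libraries and it had at least 50 UMIs over both gates in each. Of the 7 members with enough UMIs, 3 were called higher in macrophages, C1qa, C1qb and C1qc, and 0 lower. Of all 5398 genes tested, 4.52% were called higher and 1.13% lower. C1qa differed by 5.60 times (4.99 to 6.31) and 24.8 times (17.6 to 36.1), C1qc by 4.26 times (3.69 to 4.94) and 18.4 times (12.8 to 27.5), and C1qb by the least, 3.42 times (3.14 to 3.74) and 8.77 times (7.30 to 10.6). The median log2 ratio of the 7 members was 1.22 and 0.81, against 0.01 and 0.11 over all genes tested. In monocytes of library 2, C1qa and C1qc had 33 and 29 UMIs. They thus reached the minimum through the macrophage gate, where they are high. Nothing is therefore read from the number of members called or from these medians. With the melanoma-led barcodes kept in the macrophage gate the C1q ratio on the log2 scale was 3.33 in library 2 in place of 3.74, and the same 3 genes were called.

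**Figure D2:**
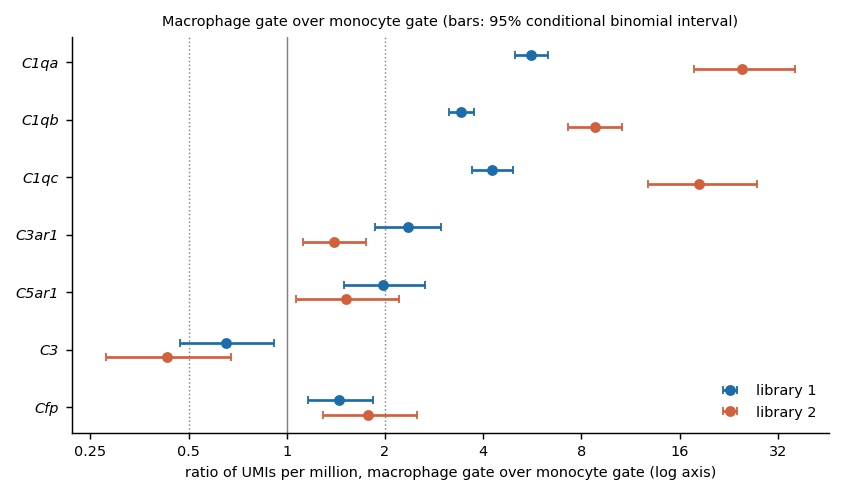
Ratio of CPM in the macrophage gate over the monocyte gate (horizontal log axis) for 7 genes (vertical axis) in library 1 (blue) and library 2 (orange), with 95% conditional binomial intervals; dotted lines mark ratios of 0.5 and 2. Points of C1qa, C1qb and C1qc lie above 2 in both libraries, C3 lies below 1 in both, and the others lie between 1 and 2.35.

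The anaphylatoxin receptor genes differed in the classes that held them. C3ar1, the receptor of C3a, was at 331 CPM (310 to 354) in the macrophage gate of library 1 and 363 (339 to 388) in library 2, and at 141 (112 to 175) and 260 (210 to 318) in the monocyte gate. It was 2.35 times (1.87 to 2.98) and 1.39 times (1.13 to 1.74) higher in macrophages, so it passed the 2-fold mark in library 1 and not in library 2. Neutrophil-gate barcodes held 0 and 1 C3ar1 UMIs, and C3ar1 was called higher in macrophages than in neutrophils. With melanoma-led barcodes kept, the log2 ratio of both receptors together between macrophages and monocytes was 0.10 in library 2, in place of 0.51.

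C5ar1, the receptor of C5a that draws neutrophils and other myeloid cells to sites of injury, had its highest level in the neutrophil gate in library 1. It was at 354 CPM (249 to 488, 37 UMIs) in neutrophils of library 1 and 175 (87.6 to 314, 11 UMIs) in library 2. Macrophages had 194 (178 to 211) and 147 (132 to 163), and monocytes 98.2 (74.4 to 127) and 96.9 (67.5 to 135). Neutrophils were 1.83 times (1.27 to 2.55) above macrophages in library 1, while in library 2 the ratio was 1.20 (0.591 to 2.17) and the order was not detectable at this depth. Macrophages were 1.97 times (1.501 to 2.64) and 1.52 times (1.07 to 2.21) above monocytes, under the mark for a call; C5ar1 passed it in both libraries when monocytes with any macrophage marker UMI were left out. Outside these 3 gates C5ar1 had 6 and 0 UMIs in T and NK barcodes, and 0 and 0 in conventional dendritic barcodes. In neutrophils C3ar1 was thus at or near 0 while C5ar1 was present, and both were present in monocytes and macrophages.

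C3, the central component, was low everywhere, and its level over whole gates was higher in monocytes than in macrophages. It was at 56.2 CPM (47.7 to 65.9) in macrophages of library 1 and 35.6 (28.4 to 44.2) in library 2. Monocytes had 86.2 (63.9 to 114) and 83.0 (56.0 to 119), and neutrophils 105 (52.6 to 188) and 95.7 (35.1 to 208), with 11 and 6 UMIs. Monocytes were 1.53 times (1.09 to 2.12) and 2.33 times (1.48 to 3.58) above macrophages, which passed the 2-fold mark in library 2 only. The size of the difference moved with the gates and with depth: the log2 ratio of macrophages over monocytes was -0.62 and -1.22, it was -1.46 and -1.74 (a call) with a macrophage gate of at least 6 UMIs, -0.11 in library 1 with at least 2 UMIs, and -0.52 in library 2 with at least 1000 UMIs per barcode. C3 was lower in deeper barcodes within each gate. Macrophages at or under their median UMIs had 97.0 and 74.7 CPM and those above it 41.8 and 22.8, and monocytes had 132 and 153 against 65.4 and 46.4. The monocyte gates were the shallower ones, and macrophages at or under their median in library 1 (97.0 CPM) were not below the monocyte gate (86.2), so the part of depth in the C3 difference was not tested. T and NK barcodes had 4 and 2 C3 UMIs and the melanoma gate 0.997 and 0.961 CPM.

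Properdin, which phagocytes store and release, was spread over myeloid cells. Cfp was at 222 CPM (205 to 241) and 202 (184 to 221) in macrophages and at 153 (123 to 189) and 113 (81.4 to 154) in monocytes, a ratio of 1.45 (1.16 to 1.83) and 1.78 (1.29 to 2.51). Neutrophils had 67.0 (26.9 to 138) and 63.8 (17.4 to 163), and Cfp was called higher in macrophages than in neutrophils. Conventional dendritic barcodes had 80.3 (38.5 to 148) and 36.7 (4.45 to 133), and plasmacytoid dendritic barcodes 55.7 (20.4 to 121) and 52.9 (6.41 to 191), so the order among neutrophils and dendritic cells was not detectable. Cfp was the only member with at least 2 UMIs in both dendritic gates of both libraries, and T and NK barcodes had 4.06 and 9.58 CPM. Cfb was close to undetected, with 18 and 4 UMIs in macrophages, 3 and 1 in monocytes and 0 in neutrophils, both dendritic gates and T and NK barcodes; no ratio is read from it.

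In macrophages over neutrophils, 5 of 7 tested members were called higher (C1qa, C1qb, C1qc, C3ar1 and Cfp) and 0 lower, where 28.5% and 5.13% of all genes were called higher and lower. In macrophages over T and NK barcodes, all 7 tested members were called higher, against 18.4% of all genes (7.02% lower), and in macrophages over the melanoma gate all 7, against 13.8% (25.8% lower). In monocytes only C1qb and C3ar1 reached the minimum of UMIs against neutrophils and against T and NK barcodes, and both were called higher. Of all genes, 17.1% were called higher and 5.9% lower in monocytes over neutrophils, and 13.8% higher and 9.92% lower in monocytes over T and NK barcodes. The members reached the minimum through the UMIs of the macrophage or monocyte gate, where they are high, so nothing is read from these counts.

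The monocyte and macrophage gates cut a continuous range, so the same barcodes were also read in 6 ranges of macrophage marker UMIs per 10000. C1q was higher in each range than in the range below it, in both libraries: C1qa, C1qb and C1qc together went from 1774 CPM (1633 to 1924) with no macrophage marker to 14054 (13739 to 14376) above 200 per 10000 in library 1, and from 377 (281 to 495) to 11245 (10951 to 11545) in library 2. C3ar1 went from 104 (71.9 to 145) to 498 (440 to 562) and from 236 (162 to 334) to 408 (353 to 468). C5ar1 went from 88.5 (59.3 to 127) to 215 (177 to 258) and from 44.3 (16.3 to 96.5) to 160 (127 to 200), with its rise mostly below 100 per 10000. Cfp was lowest between 0 and 20 per 10000, at 128 (100.4 to 161) and 83.0 (53.7 to 123), and reached 334 (287 to 387) and 298 (252 to 351) at the top. C3 was the exception, at 5.60 (1.15 to 16.4, 3 UMIs) and 10.1 (3.29 to 23.7, 5 UMIs) above 200 per 10000, against highest values of 125 (97.3 to 157) and 88.7 (45.8 to 155) in ranges below 20. It did not fall at each step. In library 1 C3 was at 61.1 (37.3 to 94.3) with no macrophage marker, below the 125 of the next range. Summed monocyte markers went from 54.5 to 10.1 per 10000 in library 1 and from 70.6 to 10.9 in library 2. Melanoma markers stayed between 1.93 and 3.39 per 10000 in library 1 and between 6.502 and 7.29 in library 2. Depth moved with C1q: in macrophage-gate barcodes above the median UMIs, C1q was at 9408 and 7886 CPM, against 2317 and 2423 at or under it. Monocytes above their median had 2310 and 658 CPM of C1q, against 680 and 169 at or under it, so in library 1 the deeper monocytes were at the level of the shallower macrophages. C5ar1 in macrophages of library 2 was at 148 CPM above the median and 144 at or under it. The part of depth was not tested.

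**Figure D3:**
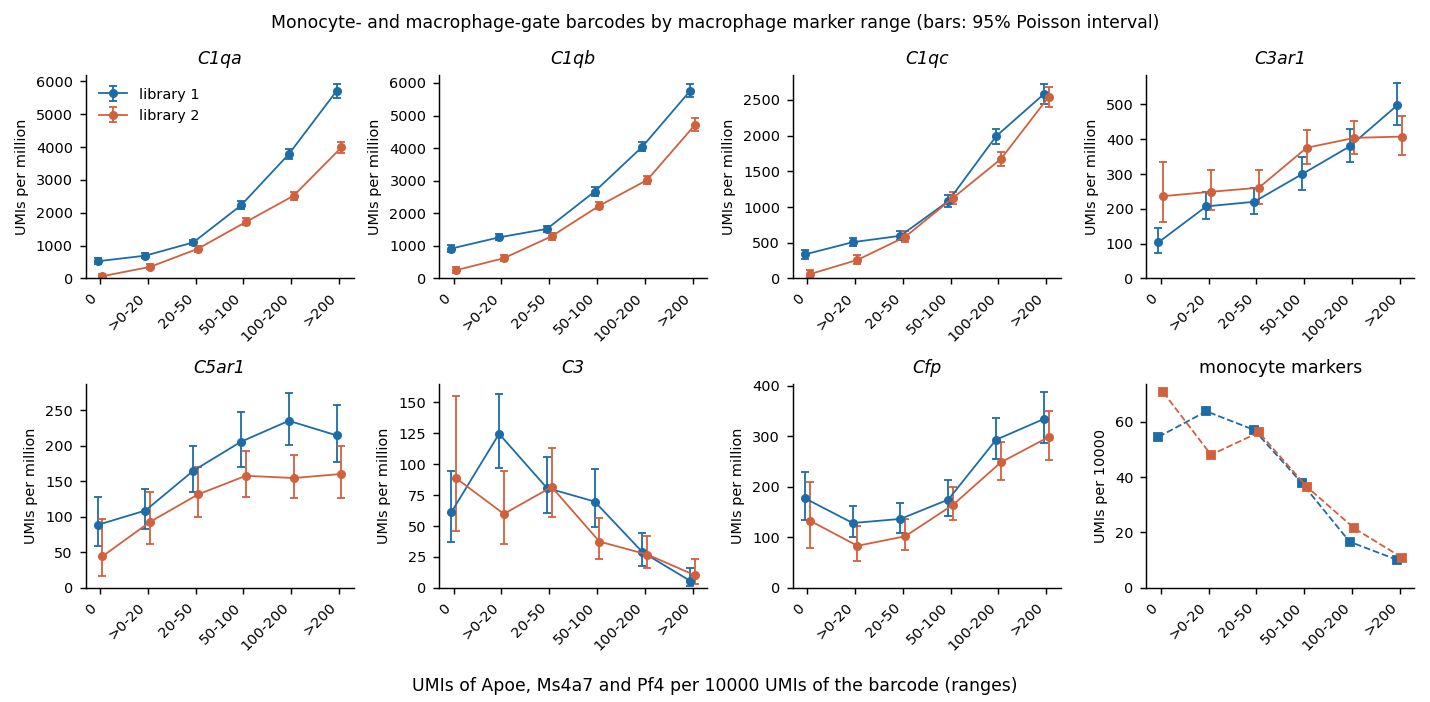
Level of 7 complement genes (vertical axes, CPM) in monocyte- and macrophage-gate barcodes grouped by Apoe, Ms4a7 and Pf4 UMIs per 10000 (horizontal axis, 6 ranges), for library 1 (blue) and library 2 (orange) with 95% Poisson intervals; the last panel gives the summed monocyte markers per 10000. The C1q genes and C3ar1 climb to the right, C3 drops to 5.60 and 10.1 in the highest range, and monocyte markers are lowest there too.

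The C1q subunit genes did not keep a fixed proportion. In 3′ counting each molecule gives 1 UMI whatever its length, but genes can differ in capture, so the C1qb to C1qa ratio is compared between groups and not read as a level. In monocytes there were 1.83 C1qb UMIs per C1qa UMI (1.59 to 2.11; 547 and 299 UMIs) in library 1 and 3.48 (2.35 to 5.30; 115 and 33 UMIs) in library 2. In macrophages with monocyte markers the ratio was 1.26 (1.20 to 1.32) and 1.31 (1.23 to 1.38), and in macrophages without them 1.03 (0.98 to 1.07) and 1.19 (1.13 to 1.24). The intervals of monocytes and macrophages did not overlap in either library. They did overlap among barcodes at or under the median UMIs of their gate. Monocytes there had 1.49 (0.985 to 2.27) and 4.33 (1.19 to 23.7), and macrophages 1.43 (1.28 to 1.59) and 1.35 (1.19 to 1.53). Above the median monocytes had 1.88 (1.62 to 2.20) and 3.40 (2.24 to 5.29), and macrophages 1.09 (1.06 to 1.13) and 1.22 (1.18 to 1.27). The part of depth was not tested. Over the marker ranges the C1qb to C1qa ratio went from 1.75 (1.45 to 2.13) and 3.78 (1.77 to 8.96) with no macrophage marker to 1.01 (0.96 to 1.06) and 1.18 (1.11 to 1.26) above 200 per 10000. In melanoma-gate barcodes, which held few C1q UMIs per barcode, the ratio was 1.16 (0.99 to 1.36) and 1.35 (1.21 to 1.49), below that of monocytes in both libraries. T and NK barcodes had 1.55 (1.11 to 2.17) and 1.42 (0.638 to 3.25), which overlapped monocytes, and barcodes with no gate 2.15 (1.70 to 2.74) and 1.63 (1.37 to 1.94). The C1qc to C1qa ratio was 0.66 (0.55 to 0.79) in monocytes and 0.50 (0.48 to 0.52) in macrophages of library 1, and 0.88 (0.51 to 1.49) and 0.65 (0.62 to 0.68) in library 2, where the intervals overlapped.

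**Figure D4:**
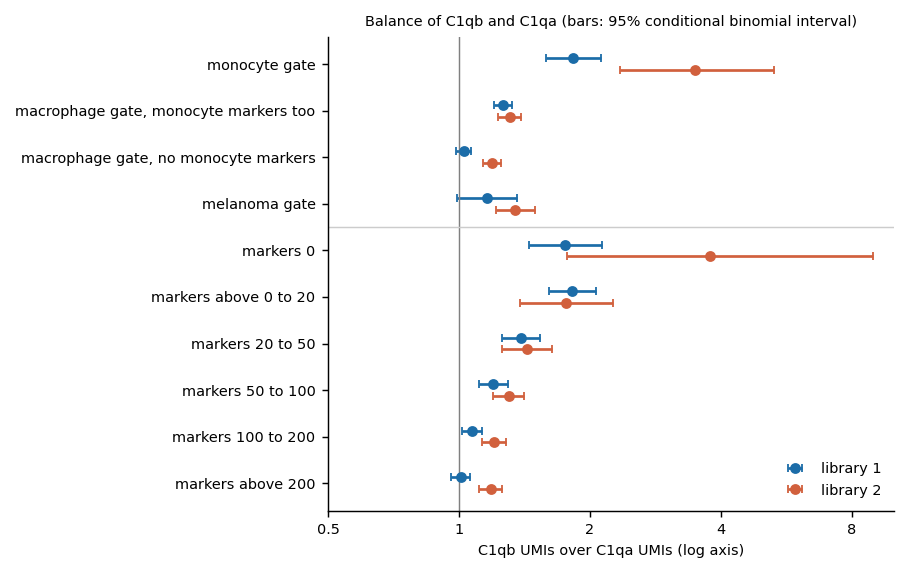
C1qb UMIs over C1qa UMIs (horizontal log axis) by class (upper 4 rows) and by range of macrophage markers per 10000 (lower 6 rows), for library 1 (blue) and library 2 (orange) with 95% conditional binomial intervals. Among the classes plotted the ratio is highest in monocytes, 1.83 and 3.48, and it approaches 1 in barcodes with the most macrophage marker RNA.

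Within the macrophage gate C1q was unevenly spread between barcodes. Each barcode was thinned to 1000 UMIs so that shares could be compared, which left out 61 of 911 macrophage barcodes in library 1 and 264 of 1118 in library 2. All 3 C1q genes were seen in 34.4% (31.2 to 37.7) and 44.8% (41.5 to 48.3) of the thinned macrophage barcodes, and none in 44.5% (41.1 to 47.9) and 28.3% (25.3 to 31.5). At the same thinned depth, at least 1 C1q gene was seen in 3.41% and 5.31% of T and NK barcodes and in 2.03% and 2.98% of melanoma-gate barcodes, which serves as the background; their medians before thinning were 1029 and 1115 and 18160 and 11998 UMIs. Before thinning, C1qb had a UMI in 54.6% and 59.4% of macrophage barcodes (medians 2193 and 1540 UMIs), against 2.35% and 2.73% of T and NK barcodes. The split was read by monocyte markers, but groups set by these also differed in macrophage markers and in depth. Macrophage barcodes that did not pass the monocyte gate's markers held 161.6 and 159.9 macrophage marker UMIs per 10000 (medians 2926 and 1960.5 UMIs). Those that passed them held 98.2 and 115.6 (medians 2092 and 1241.5 UMIs). The part of each was not tested. Among macrophage barcodes that did not pass the monocyte gate's markers, 68.5% (62.4 to 74.2) and 64.1% (59.2 to 68.8) had all 3 genes and 11.6% and 8.48% had none. Among those that also held at least 3 monocyte marker UMIs, 20.0% (16.9 to 23.5) and 27.8% (23.7 to 32.2) had all 3 and 58.3% and 45.9% had none. The 10% of macrophage barcodes with the most C1q held 38.0% and 29.6% of the thinned C1q UMIs, and the highest single barcode had 37 and 26 of 1000. In monocytes, 19.2% (14.4 to 24.7) and 24.2% (17.8 to 31.6) had at least 1 C1q gene, above the background in both libraries, and the top 10% held 81.8% and 77.3% of the UMIs. C1qb alone was seen in 53 and 43 macrophage barcodes and C1qa alone in 11 and 15, whereas the melanoma gate had 16 and 55 against 14 and 49.

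The other members were read in the same thinned macrophage barcodes by their C1q state. C3ar1 was seen in 15.1% (11.6 to 19.1) of barcodes with no C1q UMI and 35.6% (30.1 to 41.4) of those with all 3 genes in library 1, and in 21.1% (16.1 to 26.8) and 32.6% (28.0 to 37.6) in library 2. Cfp was seen in 11.6% (8.59 to 15.3) and 24.3% (19.5 to 29.7) in library 1, and in 9.09% (5.79 to 13.4) and 19.8% (15.97 to 24.2) in library 2. C3 went the other way, from 8.99% (6.31 to 12.3) to 2.05% (0.758 to 4.42) and from 8.68% (5.45 to 12.96) to 1.31% (0.425 to 3.02). The C5ar1 shares overlapped between states, at 12.4% and 17.1% in library 1 and 12.8% and 12.3% in library 2. In T and NK barcodes at this depth C3ar1 was seen in 0.426% and 1.33%, Cfp in 0.640% and 1.33%, C3 in 0.426% and 0.442%, and C5ar1 in 0.426% and 0%. Thinning does not remove a link between a level and depth before thinning. C3ar1 was at 364 and 391 CPM in macrophages above their median UMIs, against 239 and 276 at or under it. Cfp was at 262 and 227 against 110 and 125. C1q was also higher, and C3 lower, above the median. The part of depth was not tested. The barcodes are cells of 1 library and not replicates, so the intervals describe these libraries.

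**Figure D5:**
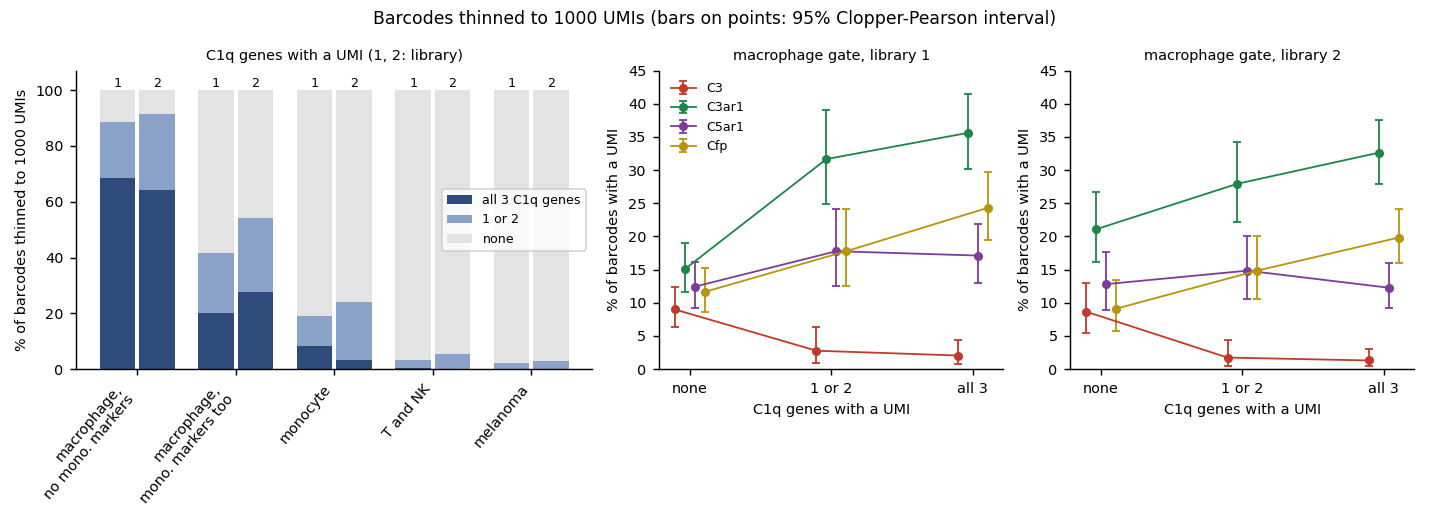
Left, share of barcodes thinned to 1000 UMIs (vertical axis, %) with all 3, 1 or 2, or none of the C1q genes in 5 groups, 1 bar per library. Middle and right, share of macrophage-gate barcodes with a UMI of C3, C3ar1, C5ar1 or Cfp (vertical axis, %) by the number of C1q genes seen, with 95% Clopper-Pearson intervals; C3ar1 and Cfp are higher and C3 lower in barcodes with all 3 C1q genes, in both libraries.

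Side by side, the libraries were closer for the C1q genes in macrophages than in monocytes. In macrophages the library 2 level over the library 1 level was 0.785 (0.758 to 0.813) for C1qa, 0.866 (0.839 to 0.895) for C1qb, 1.02 (0.976 to 1.07) for C1qc, 1.09 (0.995 to 1.20) for C3ar1, 0.757 (0.659 to 0.869) for C5ar1, 0.634 (0.479 to 0.833) for C3 and 0.908 (0.803 to 1.03) for Cfp. None of these 7 reached 2 times in either direction, where 1.54% of genes were at least 2 times higher and 1.77% at least 2 times lower in library 2. In monocytes the C1q genes were lower in library 2, at 0.177 (0.120 to 0.254) of library 1 for C1qa, 0.338 (0.274 to 0.414) for C1qb and 0.236 (0.154 to 0.350) for C1qc. C3ar1 was at 1.84 (1.35 to 2.51), and C3, C5ar1 and Cfp lay between 0.740 and 0.986 with intervals that held 1. Thus 3 of the 7 members with enough UMIs were at least 2 times lower in library 2 in monocytes, where 4.63% of genes were, and 0 were 2 times higher, where 2.49% were. The monocyte gate of library 2 held more macrophage marker RNA than that of library 1 (7.39 against 3.22 per 10000) and was shallower. In monocyte-gate barcodes with no macrophage marker UMI, MHC class II RNA (H2-Aa, H2-Ab1, H2-Eb1 and Cd74) stood at 146 and 82.1 per 10000. The part of MHC class II RNA was not tested. Library, genotype and pool of mice cannot be told apart.

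Macrophages split at their median of MHC class II RNA, the antigen presentation genes, differed modestly in C1q. Barcodes above the median had 8035 (7885 to 8187) and 7358 (7204 to 7515) CPM of the 3 genes, against 7078 (6937 to 7220) and 5695 (5558 to 5834) at or under it. Macrophage markers were lower above the median in library 1 (100.6 against 143 per 10000) and higher in library 2 (149.7 against 123). Barcodes above the median were also deeper, with medians of 2324 and 1672 UMIs against 2085.5 and 1374. The part of depth in these differences was not tested. C5ar1 was lower above the median in library 1, 169 (148 to 192) against 219 (195 to 245), and not in library 2, 149 (128 to 173) against 144 (123 to 168).

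Of 37 further complement genes, fixed as a list of pathway components, regulators and receptors, 35 were found. Macrophages over monocytes could be tested for 10 of them, and 1 was called higher, Cd81, a membrane protein of the B cell coreceptor complex, at 4.27 times (2.76 to 6.98) and 2.77 times (1.90 to 4.22). Cd93, once described as a C1q receptor, was at 208 and 155 CPM in macrophages and 119 and 88.6 in monocytes, a ratio of 1.75 in both libraries. None of the 10 was called lower. Itgam, a chain of complement receptor 3, was at 186 and 213 CPM in monocytes and 141 and 140 in macrophages, a ratio of 0.756 (0.609 to 0.945) and 0.658 (0.512 to 0.855) that was no call. Its partner Itgb2 had 227 and 213 against 207 and 166, with intervals of the ratio that held 1. Itgax, the chain of complement receptor 4, had 41.4 and 44.3 in monocytes and 38.6 and 29.6 in macrophages. Lrp1, an endocytic receptor that takes up debris with calreticulin, was at 181 and 218 in macrophages and 117 and 194 in monocytes. In macrophages over the melanoma gate, 7 of the 16 tested were called higher and 3 lower, where 13.8% and 25.8% of all genes were. The 3 lower were C2, a protease of the classical pathway, at 28.2 and 18.5 CPM in the melanoma gate against 2.20 and 2.58 in macrophages, C1qbp, the gene of a mitochondrial protein that binds C1q, at 385 and 385 against 156 and 170, and Cd59a, which blocks the terminal complex, at 4.43 and 7.17 against 1.84 and 3.004. C1s1, the protease partner of C1q, had 1 and 2 UMIs in macrophages and C1ra 16 and 8. The terminal components C6, C7 and C9, the lectins Mbl1 and Mbl2, and Cfd and Cfi had at most 2 UMIs each in macrophages of either library.

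Genes with the most similar pattern were ranked over 10 points, the 5 largest classes in 2 libraries, by Pearson's r of log2(CPM + 1) among 11435 genes; the points share libraries, and the values describe these points only. Nearest to C1qa were Cd38 (r = 0.957), Dnase2a and Wdfy2, nearest to C1qb P2ry6 (r = 0.959), Dab2 and Ctsc, and nearest to C1qc Cd38 (r = 0.968), Rab5c and Ccl7. Over these points r was 0.986 between C1qa and C1qc, and 0.907 and 0.940 between each of them and C1qb. The points include neutrophils of library 1, with 0 C1qa, 3 C1qb and 0 C1qc UMIs. In neutrophils of library 2, 1 barcode held 11 of 14 C1qa UMIs. The part of these few UMIs in the r values was not tested, so no order is read from them. C3 was nearest to Tlr2 (r = 0.996), Kctd12 and Prdx5, C3ar1 to Rab7b (r = 0.991), Ccl7 and Aif1, C5ar1 to Slc31a2 (r = 0.992), Igsf6 and Hk3, and Cfp to Cd68 (r = 0.994), Rasa4 and Mpeg1. Cfb had 24 and 13 UMIs over these classes, too few for a pattern.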

How the data were processed

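Both samples were measured by droplet 3′ sequencing, per the labels' protocols. Cell Ranger and mm10 are named in the submitters' processing notes, and version 3.0.2 of the software in the matrix, per the file headers. The authors deposited raw UMI counts of each gene in each barcode. Read assignment and any equalising of depth are not given in the sources used here. Library 1 held 49129318 UMIs and library 2 73507228.

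Members, lists, gates and tests were chosen with earlier results of these data known. Barcodes needed at least 500 UMIs, 200 genes and no more than 10% of UMIs from mitochondrial genes. The melanoma gate needed at least 3 marker UMIs and 25 per 10000, the neutrophil gate at least 3 and 50 per 10000, and the other gates at least 3; the monocyte gate also needed no other gate passed. The shares per 10000 were set after the markers' distribution was seen, not the members'. Barcodes passing 2 gates other than the melanoma and monocyte gates were left out. Barcodes passing the melanoma gate were left out only with at least 25 macrophage marker UMIs per 10000. Otherwise they stayed in the melanoma gate, whichever other gates they passed. That gate held 14.4 and 13.3 macrophage marker UMIs per 10000. The mixed barcodes left out in these ways numbered 395 and 670 with melanoma-led ones included, and no doublet caller was run. Melanoma-led barcodes are those with at least 3 melanoma marker UMIs and at least as many melanoma as macrophage marker UMIs.

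A level is the sum of a gene's UMIs over a class within a library, over all UMIs of those barcodes. Levels have exact Poisson intervals, ratios exact conditional binomial and shares exact Clopper-Pearson intervals, at 95%. Droplets were thinned by 1 random draw to 1000 UMIs, and as an alternative by 1 draw to 500. Where no UMI was seen, the level of 3 UMIs is the limit given. Symbols that name several genes (35) did not enter the ratios. Named genes are the members, up to 8 called genes of the complement list by mean log2 ratio, with others named after their values were seen, and the 3 genes most like each member. The code was tested on simulated data. Python 3.11.15, numpy 2.4.6, scipy 1.17.1, pandas 2.3.3 and matplotlib 3.10.9 were used. Alternatives were other gates and filters, repeated or mixed barcodes kept, means over barcodes, melanoma RNA subtracted, 10 UMIs per gene and other thinning; 3 were added after seeing the data.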

Additional observations from a re-analysis of the deposited data

Results flagged for a closer look

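C1qa in monocytes over neutrophils went opposite ways in the libraries. In library 1 neutrophil-gate barcodes held 0 C1qa UMIs and monocytes 299. In library 2 the ratio of monocytes over neutrophils was 0.409 (0.213 to 0.827), from 33 and 14 UMIs. A single neutrophil barcode held 11 of those 14 C1qa UMIs, so the direction in library 2 rests largely on 1 barcode. Of the 24 C1q UMIs of those neutrophils, 19 lay in 1 barcode and 21 in 3 of 79 barcodes. The difference between the libraries was not tested.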

How the results depend on the processing

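The macrophage to monocyte log2 ratio of the C1q genes lay between 1.99 and 2.36 (library 1) and between 3.33 and 4.12 (library 2) over the alternatives run, always higher in macrophages, and C1qa, C1qb and C1qc were called in each. With a macrophage gate of at least 6 UMIs it was 2.36 in library 1, and 1 member, C3, was called lower in place of 0. With at least 1000 UMIs per barcode it was 3.46 in library 2. With a macrophage gate by share, added after seeing the data, the receptors were at 0.97 and C3 with Cfp at 0.74 in library 2, and C5ar1 was called too. With monocytes that held no macrophage marker UMI, also added, C1q was at 4.12 in library 2, the receptors at 1.45 and 0.86, and C5ar1 was called too. With the macrophage gate of at least 3 UMIs alone, also added, library 2 gave 3.33 for C1q, 0.10 for the receptors and -0.13 for C3 with Cfp. The main log2 ratios were 2.07 and 3.74, 1.13 and 0.51, and 0.22 and 0.27 for these 3 groups, and the intervals of the last held 0. No paired analysis was possible because each genotype has 1 library. Depth limits neutrophil and dendritic values, which rest on few UMIs, and all Cfb values. Shares depend on depth: thinned to 500 UMIs, 24 of 32 member shares lay outside the interval at 1000.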
